A study of Saccharomyces cerevisiae with 2 samples.

Results

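The 33 genes described here encode the yeast proteasome and its main regulator, and they were taken by name from a fixed list: 14 genes of the core particle (the *PRE* and *PUP* genes and *SCL1*), 18 of the regulatory particle (the *RPN* and *RPT* genes) and *RPN4*. All 33 had at least 1 probe set, 38 probe sets in all, among 5656 genes measured. The study deleted *SDH3*, the gene for a subunit that holds succinate dehydrogenase in the mitochondrial inner membrane, in the haploid strain CENPK 113–5D, which requires uracil. The only group is *sdh3*Δ, with 2 arrays named replicate 1 and replicate 2, from aerobic batch cultures in minimal glucose medium supplemented with uracil, sampled at 20 g/liter of residual glucose. The arrays of the reference strain, which belong to an earlier study, were not analysed here, so that no value below compares the mutant with a strain that carries *SDH3*. Nothing in the sources says whether the duplicates came from separate cultures, and the spread between them may therefore be technical.

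The proteasome is the protease that degrades proteins tagged with ubiquitin in the nucleus and cytosol. Its barrel-shaped core particle is a stack of rings. The outer rings are made of alpha subunits, which form the gate, and the inner rings of beta subunits, of which some carry the active sites. The regulatory particle caps the barrel: its base holds a ring of ATPases that unfold substrates and its lid removes the ubiquitin. In yeast, the transcription factor Rpn4p binds a control element shared by the promoters of proteasome genes, and because Rpn4p is itself degraded by the proteasome, its level rises when proteasome activity is limiting.

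*SDH3* itself gave intensities of 29.3 in replicate 2 and 22.0 in replicate 1, in both cases below background. Background was taken for each array as the highest of 19 control probe sets for bacterial and mouse genes, which was 92.1 in replicate 2 and 54.8 in replicate 1. Across all genes the log2 values of the arrays had a Pearson correlation of 0.90 (across genes, which are not independent replicates), and the log2 ratio of replicate 2 over replicate 1 had a median of -0.12 and an SD of 0.73. Of 5656 genes, 12.6% were at least 2-fold lower in replicate 2 and 4.17% at least 2-fold higher. Probe sets for the end, middle and start of *ACT1*, the actin gene, gave a ratio of the 3′ to the 5′ set of 1.13 in replicate 2 and 1.02 in replicate 1. The same ratio was 0.927 in replicate 2 and 1.03 in replicate 1 for *SPT15*, and 1.17 in replicate 2 and 2.74 in replicate 1 for *SRB4*, whose sets were not above background in replicate 2 at either end, like those of *SPT15*. In replicate 1 the 5′ set of *SRB4*, at 27.5, was not above background either, so that the ratio of 2.74 has a weak value as its divisor. The part of RNA quality in the differences below was not tested. Since both arrays are of 1 condition, no test applies to the differences given below, which describe these 2 arrays only. Intensities of different probe sets were not set against each other, because each binds its target with its own strength.

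All 33 proteasome genes were above background in replicate 1, and 22 were in replicate 2. Of all 5656 genes, 4186 were above background in replicate 1, 2313 in replicate 2 and 40.7% on both arrays. In the *sdh3*Δ duplicates the proteasome genes were mostly weaker on one array: 27 had the lower intensity in replicate 2 and 6 the higher, beside 55.9% of all genes with the lower intensity there. At least 2-fold lower in replicate 2 were 17 of the 33 genes, beside 12.6% of all genes, and 1 gene was at least 2-fold higher, beside 4.17% of all genes. Of the 17 genes, 8 were above background on both arrays. The other 9 were not above background in replicate 2, and with that value raised to the background of the array 2 of them, *RPN3* and *RPN7*, remained at least 2-fold lower.

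**Figure D1:**
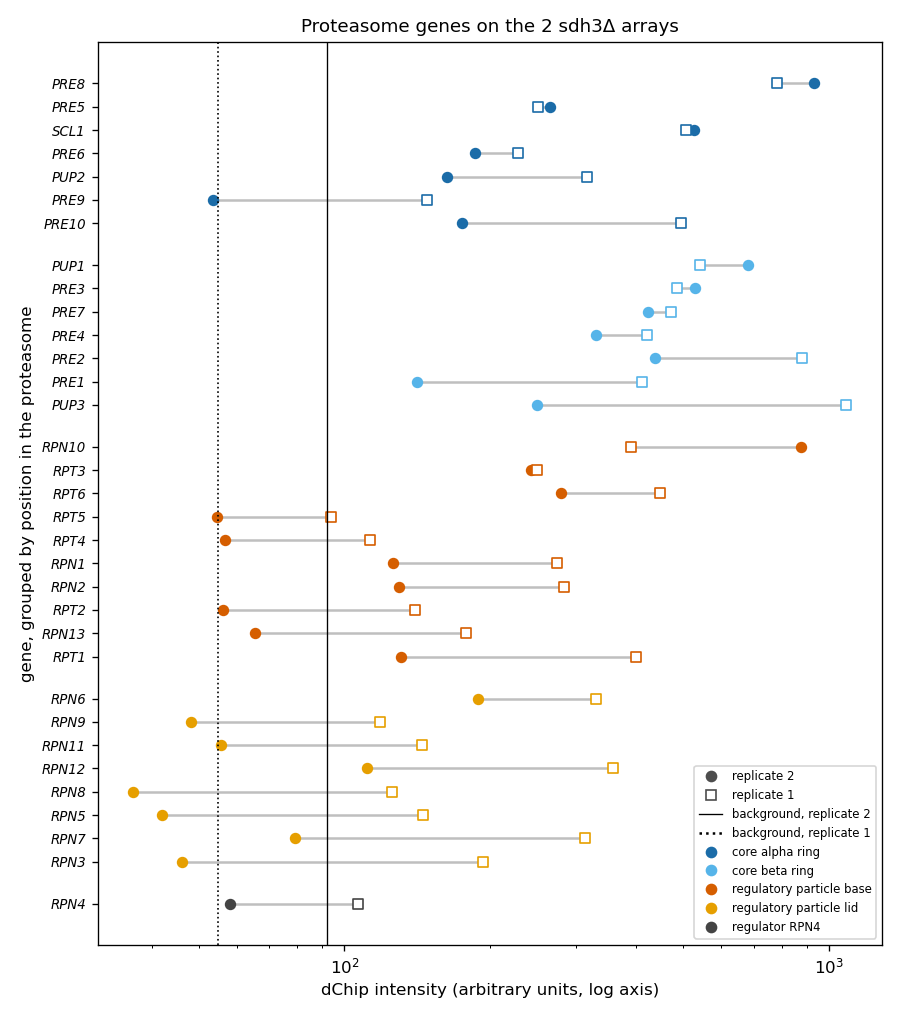
Intensity of each of the 33 proteasome genes in replicate 2 (filled circles) and replicate 1 (open squares) of *sdh3*Δ, on a log axis and grouped by position in the complex, with the background of each array as a vertical line. The lid genes are all lower in replicate 2, whereas several core genes have nearly the same value on both arrays; *RPT5* is drawn as the average of its plain probe sets.

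Among the alpha subunits of the core particle, the arrays gave nearly the same value for some genes and values more than 2-fold apart for others. *SCL1*, the first alpha subunit, had an intensity of 526 in replicate 2 and 507 in replicate 1, a mean of 517 ± 13.9 (SD, n = 2). *PRE8* had 932 in replicate 2 and 782 in replicate 1. *PRE5* had 266 in replicate 2 and 251 in replicate 1. In these 3 genes replicate 2 was the higher, by log2 ratios between 0.05 and 0.25, which are smaller than the SD of the ratio over all genes and which turned negative when the ratios were centred on a lowess line. *PRE6* was slightly lower in replicate 2, with 186 against 228 in replicate 1. *PUP2* had 163 in replicate 2 and 317 in replicate 1, a log2 ratio of -0.96 that lies just short of 2-fold. The gap was wider in *PRE10*, with 175 in replicate 2 and 495 in replicate 1 (log2 ratio -1.50). *PRE9*, the alpha subunit that yeast cells can do without, had 53.6 in replicate 2, not above background, and 148 in replicate 1, a difference in which replicate 2 was lower by at least 1.61-fold. The 7 alpha subunits thus ranged in log2 ratio between -1.50 and 0.25, with a median of -0.29.

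The beta subunits include the active sites of the protease. *PRE3*, whose product has the caspase-like activity, had an intensity of 529 in replicate 2 and 487 in replicate 1, a mean of 508 ± 29.9 (SD, n = 2). *PUP1*, of the trypsin-like activity, had 680 in replicate 2 and 542 in replicate 1. Both were a little higher in replicate 2, by 0.12 and 0.33 on the log2 scale, and the sign for *PRE3* turned when the ratios were centred on a lowess line. *PRE2*, which carries the chymotrypsin-like activity, differed from them with 439 in replicate 2 and 878 in replicate 1, a log2 ratio of -1.001. It lies at the 2-fold limit, just inside, with *RPT4* (-0.99) just outside.

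The other beta subunits have no active site of their own. *PUP3* had the widest gap among the 22 genes above background on both arrays, with 250.0 in replicate 2 and 1086 in replicate 1, a mean of 668 ± 591 (SD, n = 2) and a log2 ratio of -2.12. On the values as deposited, 0.831% of all genes had a lower ratio. *PRE1* was lower as well, with 141 in replicate 2 and 412 in replicate 1 (log2 ratio -1.55). *PRE7* had 423 in replicate 2 and 473 in replicate 1, and *PRE4* had 330.3 in replicate 2 and 421 in replicate 1. These last genes stayed within 2-fold, at -0.16 and -0.35 on the log2 scale. All 7 beta subunits were above background on both arrays, and their log2 ratios had a median of -0.35.

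The 6 *RPT* genes encode the ATPase ring of the base, in which all subunits have the same fold and occupy neighbouring places. *RPT1* had an intensity of 131 in replicate 2 and 399 in replicate 1, a log2 ratio of -1.61. *RPT3* had 243 in replicate 2 and 249.9 in replicate 1, a mean of 247 ± 4.76 (SD, n = 2), which is the closest agreement between the arrays among the 33 genes as deposited. Its sign depended on the scaling, since it was slightly positive after quantile normalization and after centring on the median. *RPT6* had 281 in replicate 2 and 448 in replicate 1 (log2 ratio -0.67). *RPT2*, whose tail helps to open the gate of the core, had 56.1 in replicate 2 and 140.2 in replicate 1. *RPT4* had 56.8 in replicate 2 and 113 in replicate 1. Neither *RPT2* nor *RPT4* was above background in replicate 2, which leaves bounds of at least 1.52-fold lower for *RPT2* and at least 1.23-fold lower for *RPT4*.

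*RPT5* is covered by 4 probe sets that do not give the same picture. Its brighter plain probe set had 95.3 in replicate 2 and 334 in replicate 1, a log2 ratio of -1.81. The other plain probe set had 31.2 in replicate 2 and 26.3 in replicate 1 and was not above background on either array. Averaged by rule over these plain probe sets, *RPT5* had a log2 ratio of -0.78. The probe sets of other kinds gave -1.78 and -1.67, close to the brighter plain one. With that one alone, 18 of the 33 genes instead of 17 were at least 2-fold lower in replicate 2. *PRE3* has 2 probe sets of other kinds besides its plain one, with log2 ratios of -0.01 and -0.16 that stayed near 0 like that of the plain probe set.

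The rest of the base consists of large scaffold proteins and of receptors for ubiquitin. *RPN1*, a docking platform for shuttle proteins, had 126 in replicate 2 and 274 in replicate 1. *RPN2*, its relative, had 129 in replicate 2 and 284 in replicate 1. The scaffold genes thus had nearly the same log2 ratio, -1.12 for *RPN1* and -1.14 for *RPN2*. The ubiquitin receptors went opposite ways. *RPN10* had 874 in replicate 2 and 391 in replicate 1, a mean of 633 ± 342 (SD, n = 2) and a log2 ratio of 1.16. It was the only one of the 33 genes at least 2-fold higher in replicate 2, and 97.8% of all genes had a lower ratio; centred on a lowess line it no longer reached 2-fold. *RPN13* had 65.4 in replicate 2, not above background, and 179 in replicate 1, at least 1.94-fold lower in replicate 2.

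Every lid gene was lower in replicate 2, beside 55.9% of all genes. On the values as deposited 7 of 8 were at least 2-fold lower, beside 12.6% of all genes. *RPN11* encodes the metalloprotease that cuts ubiquitin chains from substrates and *RPN8* its catalytically inactive partner. *RPN11* had an intensity of 55.7 in replicate 2 and 145 in replicate 1. *RPN8* had 36.7 in replicate 2 and 125 in replicate 1. In replicate 2 neither was above background, so *RPN11* was at least 1.57-fold lower and *RPN8* at least 1.36-fold lower. The remaining lid genes encode a horseshoe of scaffold subunits. *RPN3* had 46.2 in replicate 2 and 193 in replicate 1, at least 2.10-fold lower in replicate 2. *RPN7* had 78.9 in replicate 2 and 314 in replicate 1, at least 3.41-fold lower. Both stayed past 2-fold with replicate 2 at background. *RPN5* had 42.1 in replicate 2 and 145 in replicate 1, at least 1.57-fold lower. *RPN9* had 48.2 in replicate 2 and 119 in replicate 1, at least 1.29-fold lower. Like *RPN8* and *RPN11*, these genes lost the 2-fold difference once replicate 2 was set to background. *RPN12*, the subunit that joins the lid last, had 111 in replicate 2 and 358 in replicate 1 (log2 ratio -1.68). *RPN6*, which clamps the lid to the core, had 188 in replicate 2 and 330.3 in replicate 1 (log2 ratio -0.81). They were the lid genes measured above background on both arrays.

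*RPN4*, the transcription factor of the proteasome genes, had an intensity of 58.1 in replicate 2, not above background, and 107 in replicate 1, with a mean of 82.3 ± 34.3 (SD, n = 2). The bound for replicate 2 was at least 1.16-fold lower. On the values as deposited its log2 ratio was -0.88, and with values raised to background it was -0.21. Of the genes that act on *RPN4*, *HSF1*, the heat shock factor, had 115 in replicate 2 and 85.4 in replicate 1, and *PDR1*, a regulator of drug resistance, had 80.6 in replicate 2 and 127 in replicate 1. *YAP1*, of the oxidative stress response, had 43.8 in replicate 2 and 74.5 in replicate 1, and *PDR3* had 54.2 in replicate 2 and 70.2 in replicate 1. Their replicate 2 values, other than that of *HSF1*, were not above background, and both *YAP1* and *PDR3* lay in replicate 1 below the background of replicate 2, so that their order between the arrays is not known. None of the 6 genes of this list, to which *UBR2* and *MUB1* of the ligase for Rpn4p also belong, was 2-fold apart on the values as deposited. Of all genes, 12.6% were at least 2-fold lower in replicate 2 and 4.17% at least 2-fold higher. *UBR2* and *MUB1* were not above background on either array.

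Set side by side, the core and the regulatory particle differed in how far their genes lay apart on the arrays. At least 2-fold lower in replicate 2 were 12 of 18 genes of the regulatory particle, against 5 of 14 core genes, beside 12.6% of all genes. The median log2 ratio was -1.31 for the regulatory particle and -0.32 for the core, beside -0.12 for all genes. Within the regulatory particle the lid had a median of -1.73 and the base one of -1.06. Since 6 of 8 lid genes were not above background in replicate 2, the lid median was -0.73 with values raised to background, and -1.05 with a pseudocount of 50. The ranges overlapped, with log2 ratios between -2.06 and 1.16 in the regulatory particle and between -2.12 and 0.33 in the core. Above background on both arrays were 9 of 18 genes of the regulatory particle and 13 of 14 core genes, and this moved with the ratio: among genes so measured 4 of 9 and 4 of 13 were at least 2-fold lower, with medians of -0.81 and -0.29. The 9 include *RPT5*, which passed through its brighter plain probe set (95.3 in replicate 2). Its averaged value of 54.6 in replicate 2, used for these figures, was below background. The brighter probe set alone had a log2 ratio of -1.81, past 2-fold, against -0.78 for the average. Of all genes above background on both arrays, 9.43% were at least 2-fold lower and 9.64% at least 2-fold higher, with a median of 0.24. The part of background in the difference was not tested. No test was made of this difference, because genes are not replicates and the arrays are of 1 group. With all values raised to background the medians were -0.66 for the regulatory particle and -0.32 for the core, while that of all genes became 0.48, since the background of replicate 2 is the higher.

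**Figure D2:**
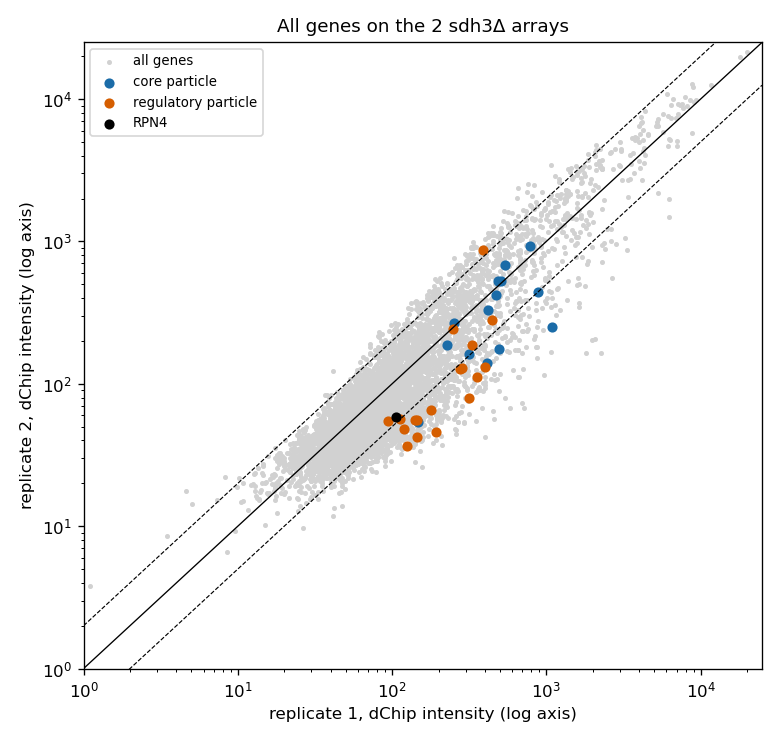
Intensity of every gene in replicate 2 (vertical) against replicate 1 (horizontal) of *sdh3*Δ, both on log axes, with core particle, regulatory particle and *RPN4* in colour; the solid line marks equal values and the dashed lines 2-fold. Most of the regulatory particle lies near or below the lower dashed line, with *RPN10* alone above the upper one, and 5 core genes lie below the lower line.

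Genes that work with the proteasome without being among the 33 are given beside the 12.6% of all genes that were at least 2-fold lower in replicate 2. Of 5 partner genes 1 was, on the values as deposited. That gene was *UBP6*, the ubiquitin protease bound to the base, with 53.0 in replicate 2, not above background, and 131 in replicate 1, at least 1.42-fold lower in replicate 2. *SEM1*, the small lid subunit, had 36.0 in replicate 2 and 68.8 in replicate 1. *HUL5*, a ligase bound to the proteasome, had 56.6 in replicate 2 and 73.8 in replicate 1, and *ECM29*, which ties the particles together, had 30.4 in replicate 2 and 39.7 in replicate 1. The values of *SEM1*, *HUL5* and *ECM29* in both arrays lay below the background of replicate 2 and have no order. Of 10 assembly factors, 1 was at least 2-fold lower in replicate 2 and the median log2 ratio was -0.03. It was *NAS6*, a chaperone of the base, with 105 in replicate 2 and 225 in replicate 1 (log2 ratio -1.10). *UMP1*, which assembles the core and is degraded on its completion, had 198 in replicate 2 and 151 in replicate 1, and *ADD66*, a core chaperone, had 237 in replicate 2 and 139 in replicate 1. Both were above background on both arrays and higher in replicate 2 as deposited. Of the 22 proteasome genes so measured, 16 were lower in replicate 2, beside 36.6% of all genes so measured. The median log2 ratio of all genes so measured was 0.24, and that of *UMP1* was 0.39. *IRC25*, another core chaperone, had 77.9 in replicate 2 and 124 in replicate 1, at least 1.35-fold lower. *HSM3*, of the base, had 40.4 in replicate 2 and 55.1 in replicate 1, without a known order.

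Upstream of the proteasome, ubiquitin is activated, conjugated and delivered. Of 13 genes measured for ubiquitin and its conjugation, 4 were at least 2-fold lower in replicate 2 and 1 at least 2-fold higher, beside 12.6% and 4.17% of all genes. *UBA1*, the activating enzyme, had 101 in replicate 2 and 338 in replicate 1 (log2 ratio -1.75). *UBI4*, the polyubiquitin gene, had 109.7 in replicate 2 and 232 in replicate 1 (log2 ratio -1.08). *RPS31*, which encodes a fusion of ubiquitin with a ribosomal protein, had 957 in replicate 2 and 2841 in replicate 1 (log2 ratio -1.57). These genes were above background on both arrays. *UBC1*, a conjugating enzyme, had 81.7 in replicate 2, not above background, and 263 in replicate 1, at least 2.85-fold lower in replicate 2. *UBC13*, whose chains serve DNA repair, was the gene at least 2-fold higher, with 1631 in replicate 2 and 734 in replicate 1. Its log2 ratio was 1.15, and 0.79 when centred on a lowess line. As deposited, 9 of the 13 genes had the lower value in replicate 2 and 4 the higher. Of 8 ubiquitin ligases 1 was at least 2-fold lower in replicate 2. It was *SSM4*, a ligase of the endoplasmic reticulum, with 92.14 in replicate 2 and 223 in replicate 1. The replicate 2 value of *SSM4* barely passed the background of that array, 92.09. *TOM1* had a log2 ratio of -0.996 over its plain probe sets and of -0.20 over all its probe sets. *RSP5* had 126 in replicate 2 and 192 in replicate 1, and *UFD4* had 93.7 in replicate 2 and 127 in replicate 1.

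On the values as deposited, none of 10 genes for Cdc48p, its partners and the shuttle factors, which deliver proteins to the proteasome, was 2-fold apart, beside 12.6% of all genes at least 2-fold lower in replicate 2 and 4.17% at least 2-fold higher, and their median log2 ratio was -0.08. *CDC48*, the segregase that extracts ubiquitinated proteins, had 1044 in replicate 2 and 1154 in replicate 1. Its log2 ratio was -0.14 as deposited and -0.51 when centred on a lowess line. *UFD2*, a partner of Cdc48p, had 46.9 in replicate 2 and 87.4 in replicate 1, both below the background of replicate 2. *OTU1* had 155 in replicate 2 and 217 in replicate 1, and *UFD1* had 95.1 in replicate 2 and 122 in replicate 1. *NPL4* had 77.5 in replicate 2, not above background, and 109 in replicate 1, at least 1.18-fold lower in replicate 2. None of 8 vacuolar proteases and inhibitors measured was 2-fold apart either as deposited, and their median was 0.23. The median of all genes was -0.12, and 0.24 among those above background on both arrays, as 6 of the 8 were. *APE3*, an aminopeptidase, had 1134 in replicate 2 and 728 in replicate 1, and *PRC1*, carboxypeptidase Y, had 449 in replicate 2 and 372 in replicate 1. Centred on a lowess line, the log2 ratio of *APE3* was 0.29 and that of *PRC1* 0.04, against 0.64 and 0.27 as deposited. *PBI2*, an inhibitor, had 101 in replicate 2 and 169.7 in replicate 1, and *DAP2* had 90.8 in replicate 2, not above background, and 181 in replicate 1, at least 1.96-fold lower in replicate 2. Of 24 chaperone genes measured 6 were at least 2-fold lower in replicate 2 and none was 2-fold higher, with a median of -0.47, beside 12.6% and 4.17% of all genes. *CCT5*, of the cytosolic chaperonin, had 67.5 in replicate 2, not above background, and 579.6 in replicate 1, at least 6.29-fold lower. *CCT3* of the same complex was at least 2.55-fold lower. *SSE1* and *YDJ1*, partners of Hsp70, had log2 ratios of -1.37 each.

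**Figure D3:**
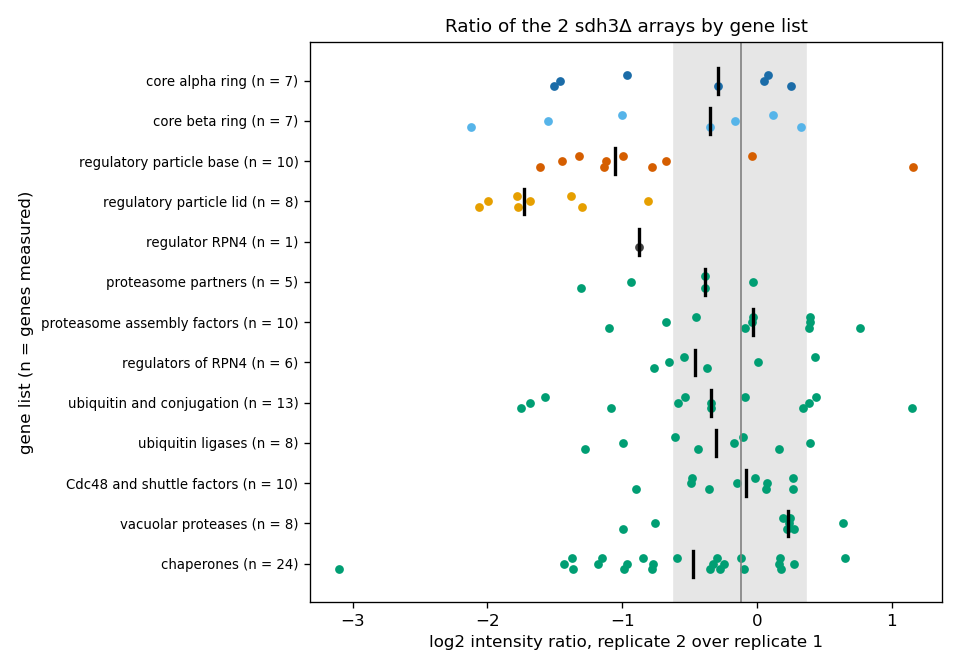
Log2 intensity ratio of replicate 2 over replicate 1 for each gene (points) by gene list, with the median of the list as a black bar. The grey band holds the middle 50% of all genes and the grey line their median of -0.12; the lid lies wholly to the left of the band, while the medians of both core rings lie inside it.

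The wider gap in the regulatory particle was present in all the processings tried. After quantile normalization the medians were -1.19 for the regulatory particle and -0.23 for the core, and after centring on the median of all genes -1.19 and -0.20. Such centring takes the same value from every ratio, so it cannot change the distance of 0.99 and says nothing about its stability. After centring on a lowess line, which removes a trend with intensity, they were -1.13 and -0.48, and the distance between them shrank to 0.64 from 0.99 on the values as deposited. The sign of the log2 ratio was the same under these 3 scalings in 28 of the 33 genes, the others being *PRE3*, *PRE5*, *PRE8*, *SCL1* and *RPT3*. The scalings also moved the balance among all genes at least 2-fold apart, of which 75.1% were lower in replicate 2 as deposited, 60.0% after centring on the median, 65.2% after quantile normalization and 69.2% after the lowess line. Of the 33 genes, the numbers at least 2-fold lower were 15, 16 and 18 under these settings, beside 9.94%, 10.9% and 9.58% of all genes.

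**Figure D4:**
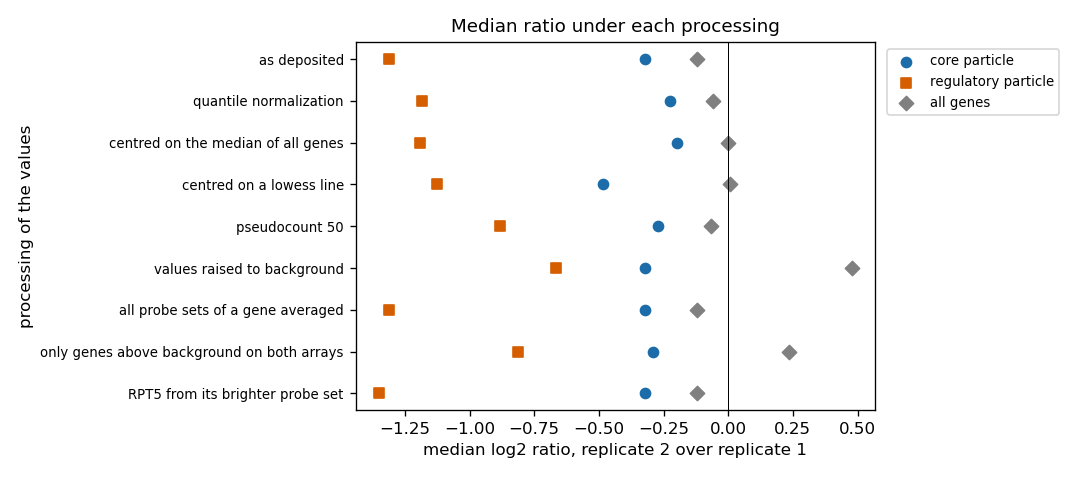
Median log2 ratio of replicate 2 over replicate 1 for the core particle (circles), the regulatory particle (squares) and all genes (diamonds) under each processing of the values. The regulatory particle lies left of the core in every row, and the distance is smallest, 0.34, with values raised to background. Centring on the median of all genes shifts all points alike and cannot change the distance.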

How the data were processed

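RNA from 2 *sdh3*Δ samples was hybridized by the authors to Affymetrix Yeast Genome S98 arrays. The authors scaled them with Microarray Suite, version 5, then normalized them with dChip, whose Perfect Match model gave the deposited linear intensity of each of 9335 probe sets. Of these, 60 are controls, 6504 were named for 1 gene and 328 for several, and 11 not above 0 on both arrays were dropped. All 6504 were found in the R64 gene table, which gave 5656 genes. The log2 values of a gene's plain probe sets were averaged, with other kinds used where a gene had no plain one. A gene was above background where any probe set used was, and a value not above background in replicate 2 gives a bound, with the value set to 92.1. The log2 ratio of replicate 2 over replicate 1 was computed with no pseudocount, by code tested on simulated data, and genes were counted past 2-fold. From each of the other lists up to 4 genes with the largest ratio in size, above background on an array, were named, besides *UMP1*, *UBI4*, *CDC48* and *SDH3*. The 33 genes and the lists were chosen with earlier results of these data known. With 1 group no test was possible, and the number of arrays limits the precision. Alternatives were other scalings, a pseudocount of 50, raised values and other uses of probe sets. A limit of 1.5-fold and the median control probe set as background were tried as well. *RPT5* from its brighter probe set was added after seeing the data. The planned count of promoter motifs was not made, as no sequence was used here. Python 3.11.15, numpy 2.4.6, pandas 2.3.3, statsmodels 0.14.6 and matplotlib 3.10.9 were used.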

Additional observations from a re-analysis of the deposited data

How the results depend on the processing

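The counts of genes at least 2-fold apart depended on how weak values were treated. With a pseudocount of 50, 10 of the 33 genes were at least 2-fold apart, 9 of them lower in replicate 2, instead of 18 and 17 as deposited, beside 4.65% of all genes lower. With values raised to background 11 were apart and 10 lower, beside 5.59% of all genes, the median log2 ratio of the regulatory particle was -0.66 and that of *RPN4* was -0.21. Among the 22 genes above background on both arrays 9 were apart and 8 lower, beside 9.43% of all genes so measured. These counts take *RPT5* at its averaged log2 ratio of -0.78, not at the -1.81 of its brighter probe set. Above background were 22 genes without replicate 1 and 33 without replicate 2, against 22 on both arrays. With the median control probe set as background, 30 of the 33 were above it on both arrays. At a limit of 1.5-fold instead of 2-fold, 24 of the 33 were apart and 23 lower. The share of all genes was not counted under either setting, so these counts have no figure to be read against. The lower quartile of the log2 ratio over all genes was -0.61, itself past 1.5-fold lower. The median of all 33 genes lay between -1.12 and -0.65 under every alternative run, against -1.001 as deposited, and that of the core between -0.48 and -0.20. With the highest control probe set as background, the signal over background in replicate 2 limits the values of 11 of the 33 genes. These were above background in replicate 1 only, as were 33.3% of all genes, so this is not particular to the proteasome genes. No paired analysis was possible because the series has 1 group. The planned count of promoters with the Rpn4p element was not run.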
